A study of Mus musculus with 2 samples.

Results

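The miRNAs of the imprinted Dlk1-Dio3 locus that were chosen by their fold change between a CPZ and a control array numbered 8 array features, 7 mature miRNAs and 1 stem-loop (the hairpin precursor). The whole table held 36249 probe sets, which had 6653 distinct pairs of values over the 2 arrays. Total RNA from 1 brain sample of male C57BL/6 mice given cuprizone (CPZ) at 0.2% of the diet over 6 weeks, and from 1 brain sample of age-matched control mice on normal chow, was hybridized to 1 miRNA array each. Feeding CPZ, which binds copper, leads to loss of oligodendrocytes and of the myelin they make. The mice were bought at 7 weeks of age and acclimated for 1 week. The labels name the tissue as cerebellum and the methods name it as cerebrum, and the sources used here do not state how many mice contributed to an array.

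The Dlk1-Dio3 locus is an imprinted region of mouse chromosome 12 that holds one of the largest groups of mammalian miRNA genes. The protein-coding genes Dlk1, Rtl1 and Dio3 are expressed from the paternal chromosome. The noncoding RNAs Meg3, Rian and Mirg are expressed from the maternal chromosome, and so are the miRNAs. The miRNAs of the locus are abundant in brain, where several act in neurons. A miRNA represses mRNAs that pair with its seed, the bases 2 to 8 from its 5′ end.

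The 8 features were selected on the same 2 arrays that are described here. They are the miRNAs of the locus among the 69 that the study listed for a difference of at least 1.5-fold. The deposited probe sets carry numbers and no names, so each feature was found as the probe set whose log2 ratio and volume (the geometric mean of its 2 log2 values) equal the listed ones within 0.0002. Direction and size of these differences are therefore a description of the selection and were not tested. Features of the locus that the study did not list carry no name and are not described, whatever their fold change. The study also filtered the probes for mouse annotation, so its list rests on more than the fold change. There was no replicate of either condition, so no value has an error, and 1 array per condition sets the precision. On an array of whole-tissue RNA, fewer cells of a type and less RNA per cell cannot be told apart.

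All 8 features were located. Of these, 3 had 1 probe set each, and 5 had several that held the same values, which made 26 probe sets in all. The largest gap between a recomputed and a listed value was 4.81e-07. The closest pair of values outside the tolerance lay 0.00559 from the entry of mmu-miR-380-5p and 0.0096 from that of mmu-miR-1906, and at least 0.0417 from those of the other 6.

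The 7 mature sequences are shown because they define what the probes read and which mRNAs each miRNA can pair with. Sequences and positions are those of RefSeq on build GRCm38.p6, all on the plus strand of chromosome 12 unless stated, with the seed in capitals.
mmu-miR-665-3p, chr12:109586368-109586387: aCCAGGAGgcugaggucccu
mmu-miR-431-5p, chr12:109590459-109590479: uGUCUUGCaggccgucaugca
mmu-miR-433-5p, chr12:109591729-109591750: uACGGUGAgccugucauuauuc
mmu-miR-380-5p, chr12:109711806-109711827: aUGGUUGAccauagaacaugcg
mmu-miR-539-5p, chr12:109728136-109728157: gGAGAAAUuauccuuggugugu
mmu-miR-412-3p, chr12:109743340-109743359: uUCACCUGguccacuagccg
mmu-miR-1906, chr12:109544588-109544609: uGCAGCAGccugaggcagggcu

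The 7 seeds all differ from each other. Among 1679 mature mouse miRNA names in the RefSeq table, 6 of the 7 seeds occurred in no other name. The exception was the seed of mmu-miR-412-3p, which mmu-miR-1983 of chromosome 13 also carries. The sequence of mmu-miR-1906 occurs a second time, on the minus strand of chromosome X (chrX:88759485-88759506, Mir1906-2). The array value of mmu-miR-1906 therefore cannot be assigned to the Dlk1-Dio3 copy alone. The G and C content ran from 40.9% in mmu-miR-539-5p to 68.2% in mmu-miR-1906, and the median over all mature mouse names was 52.2%.

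All 7 genes of these features had a copy in the locus. In the annotation 61 miRNA genes lie between Dlk1 and Dio3, and 7 of them give the 8 features. These 7 genes fall into 3 stretches. Mir1906-1 is the first of the 61 and lies inside Meg3. Mir665, Mir431 and Mir433 are numbers 8, 11 and 12 and lie within 5.4 kb, inside the span of Rtl1. Mir431 and Mir433 are known as part of the RNA antisense to Rtl1. Mir380, Mir539 and Mir412 are numbers 26, 45 and 57 and lie over 31.5 kb in the cluster that runs from Mir379 to Mir410, with Mir412 inside Mirg. Of the genes fixed as the list of the locus, 58 of 60 were found by name. The 61 genes have 113 mature names in the RefSeq table, of which the 7 shown have a value and 106 have no identified value here, so how the locus as a whole differed between the arrays is not known.

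Of the 8 features, 7 were higher and 1 was lower in CPZ, as selected. For comparison, of all 6653 distinct pairs 15.1% were higher in CPZ by 1.5-fold or more and 19.1% were lower by as much. These pairs, and the pairs of like level below, come from all probe sets of the array. The study kept only probes annotated to mouse, so the features and this background are unlike sets. The 7 higher features had fold changes from 1.54 to 2.15 with a median of 1.71. The median log2 ratio (CPZ minus control) of all 8 was 0.72, beside a median of 0 over all distinct pairs. Each value is a log2 signal from RMA. This procedure subtracts background, gives the probe signals of the arrays a common distribution and combines the probes of each set. The medians of the deposited values over distinct pairs were 1.66 on the CPZ array and 1.79 on the control array. The features were dim to moderate, from 3.81 to 6.55 on the CPZ array and from 2.75 to 5.68 on the control array. An RMA value of at least 5 was reached by 2 of the 8 on the CPZ array and by 1 on the control array.

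**Figure D1:**
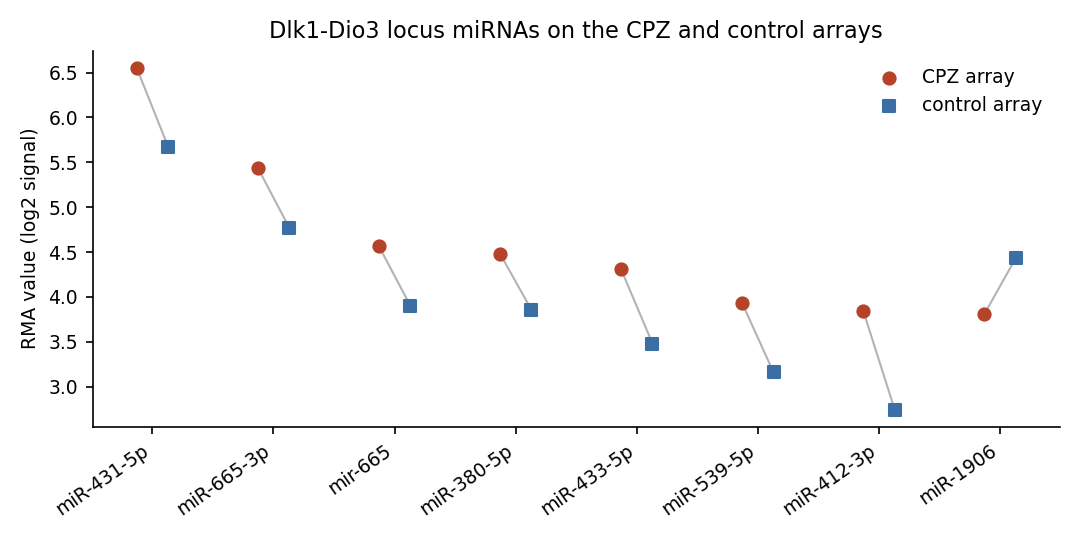
RMA value (log2 signal) of each of the 8 features on the CPZ array (circles, left) and the control array (squares, right), 1 array each, so no error bars can be drawn. The first 7 features were higher on the CPZ array, by 0.63 to 1.10 in log2, and miR-1906 was lower, at 3.81 against 4.43.

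In the stretch inside Rtl1, the 4 features had log2 ratios of 0.66 to 0.88. mmu-miR-431-5p, which represses the muscle stem cell factor Pax7 in mouse muscle, had an RMA value of 6.55 on the CPZ array and 5.68 on the control array. On the linear scale these are signals of 93.9 in CPZ and 51.1 in control, a 1.84-fold difference. It was the only 1 of the 8 with a value of at least 5 on both arrays. At its level, taken as a mean of both arrays within 0.5 (log2), 4.15% of 265 other pairs were at least 1.5-fold higher in CPZ.

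mmu-miR-433-5p comes from the gene next to Mir431. It had a value of 4.31 in CPZ and 3.48 in control, or linear signals of 19.8 and 11.2, a 1.78-fold difference. The log2 ratio was 0.83 for mmu-miR-433-5p and 0.88 for mmu-miR-431-5p as deposited. With 16 added to the linear signals it was 0.40 for mmu-miR-433-5p and 0.71 for mmu-miR-431-5p. Among 455 other pairs at the level of mmu-miR-433-5p, 11.9% were at least 1.5-fold higher in CPZ.

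mmu-miR-665-3p had a value of 5.44 in CPZ and 4.77 in control, linear signals of 43.4 and 27.3, a 1.59-fold difference. Of 352 other pairs at its level, 9.38% were at least 1.5-fold higher. The array has a second feature of this gene, the stem-loop mmu-mir-665, which is printed here because it contains the mature 3p sequence whole, shown in capitals at bases 55 to 74 of 94.
mmu-mir-665, chr12:109586314-109586407: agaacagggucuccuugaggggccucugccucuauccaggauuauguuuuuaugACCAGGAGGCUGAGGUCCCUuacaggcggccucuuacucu

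The stem-loop had a value of 4.57 in CPZ and 3.90 in control, linear signals of 23.7 and 15.0, a 1.58-fold difference. The log2 ratios of the 2 features were 0.66 (stem-loop) and 0.67 (mature) as deposited, and 0.36 and 0.46 with 16 added. Whether the stem-loop probes read precursor or mature RNA was not tested. Of 418 other pairs at its level, 11.2% were at least 1.5-fold higher. The log2 ratio of mmu-mir-665 also recurred elsewhere on the arrays. Within 0.00002, 44 other distinct pairs had the same log2 ratio and 43 had its exact opposite. These 88 pairs, mmu-mir-665 included, had a median mean level of 1.18, beside 4.23 for mmu-mir-665 itself, and 2 of them, itself included, lay at its level or above. No other pair had the log2 ratio of mmu-miR-665-3p, mmu-miR-431-5p or mmu-miR-433-5p in either sign. The log2 ratio of the stem-loop was thus 1 of many equal ones, and that of the mature form was not.

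In the cluster from Mir379 to Mir410, the 3 features had log2 ratios of 0.63, 0.77 and 1.10, which overlap those of the Rtl1 stretch. mmu-miR-380-5p, which represses p53 in embryonic stem cells and neuroblastoma cells, had a value of 4.48 in CPZ and 3.86 in control, linear signals of 22.4 and 14.5. Its 1.54-fold difference lies just inside the 1.5-fold limit of selection. Of 433 other pairs at its level, 12% were at least 1.5-fold higher.

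mmu-miR-539-5p, which represses the mitochondrial protein prohibitin 2 in mouse heart cells, had a value of 3.93 in CPZ and 3.16 in control, linear signals of 15.3 and 8.93, a 1.71-fold difference. Its values stood at 8 probe sets, the most of the 8 features. Being identical, they count once and add no support. Of 502 other pairs at its level, 12.7% were at least 1.5-fold higher.

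mmu-miR-412-3p had a value of 3.85 in CPZ and 2.75 in control, linear signals of 14.4 and 6.70. This 2.15-fold difference was the largest of the 8 in the deposited values. Its log2 ratio was also the largest after centring (1.08), lowess (1.23) and quantile normalization (1.37), but not with a constant added. With 16 added to both signals mmu-miR-412-3p differed 1.34-fold and mmu-miR-431-5p 1.64-fold, and with 64 added the folds were 1.11 for mmu-miR-412-3p and 1.37 for mmu-miR-431-5p. Of 542 other pairs at its level, 13.1% were at least 1.5-fold higher. In the deposited values it was the only feature of the 8 past a fold of 2.

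mmu-miR-1906 was the feature that was lower, at 3.81 in CPZ and 4.43 in control, linear signals of 14.0 and 21.6, so that the CPZ signal was 0.648 of the control signal. It lies just inside the limit of selection, and its log2 ratio was -0.63. Of 442 other pairs at its level, 19.5% were at least 1.5-fold lower in CPZ. When the probe set values of the arrays were set to one common distribution by quantile normalization, its log2 ratio was -0.49. With a lowess fit subtracted it was -0.58, a fold under 1.5 in both cases.

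**Figure D2:**
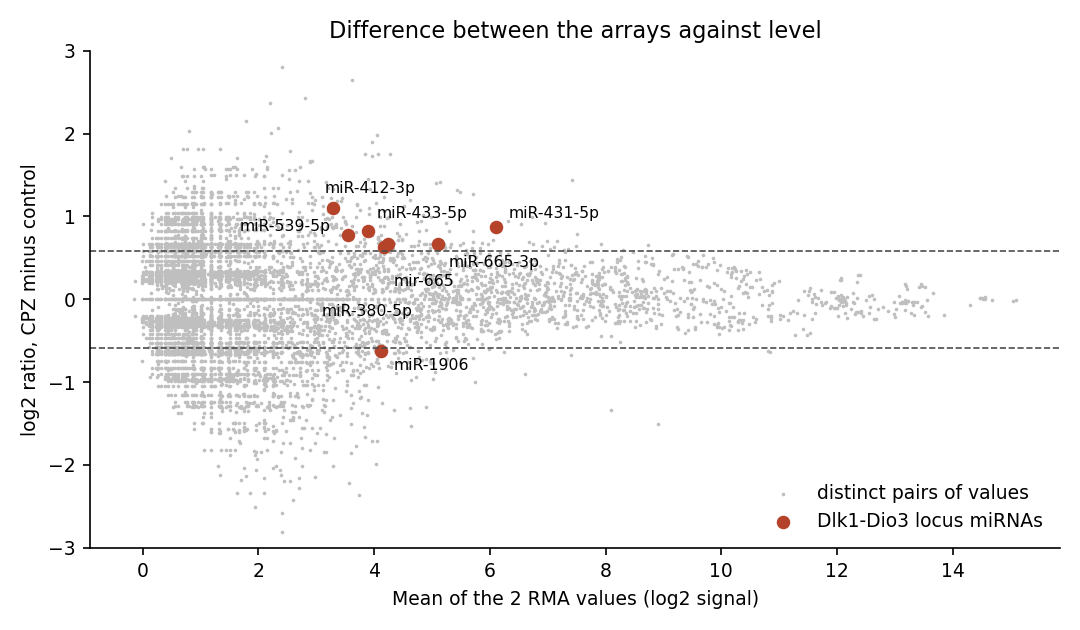
log2 ratio (CPZ minus control) against the mean of the 2 RMA values for all 6653 distinct pairs (grey) and the 8 features (red), with dashed lines at 1.5-fold; 38 pairs beyond 3 in either direction are not drawn. The features lie at mean levels from 3.30 to 6.11, where grey points past the lines become rarer as the level rises.

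The spread of other pairs around each feature differed with level. For mmu-miR-431-5p the interquartile range of the 265 pairs of like level ran from -0.15 to 0.27 in log2 ratio. For mmu-miR-412-3p, with a mean level of 3.30, the interquartile range of 542 pairs ran from -0.61 to 0.27, with a median of -0.14. All 7 higher features lay above the upper end of their band and mmu-miR-1906 below the lower end of its band, from -0.50 to 0.35, which the selection at 1.5-fold brings about.

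**Figure D3:**
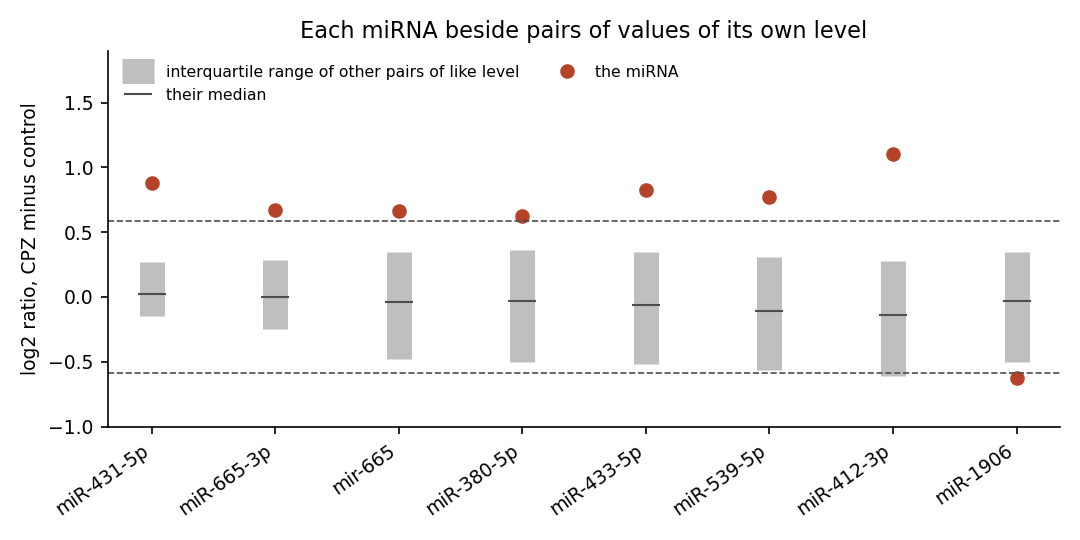
log2 ratio of each feature (red points) beside the interquartile range (grey bars) and median (black lines) of other distinct pairs with a mean level within 0.5, with dashed lines at 1.5-fold. The band narrows toward the brighter features, at -0.15 to 0.27 for miR-431-5p against -0.61 to 0.27 for miR-412-3p.

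Along the chromosome the 7 higher features spanned 157 kb and did not follow a single order. The log2 ratio was 0.67 (mature) and 0.66 (stem-loop) at Mir665, 0.88 at Mir431 and 0.83 at Mir433. It was 0.63 at Mir380, 0.77 at Mir539 and 1.10 at Mir412. Mir1906-1, at -0.63, lies 41.7 kb before Mir665. With 54 of the 61 miRNA genes giving no identified value, the points show 7 places and not the course between them.

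**Figure D4:**
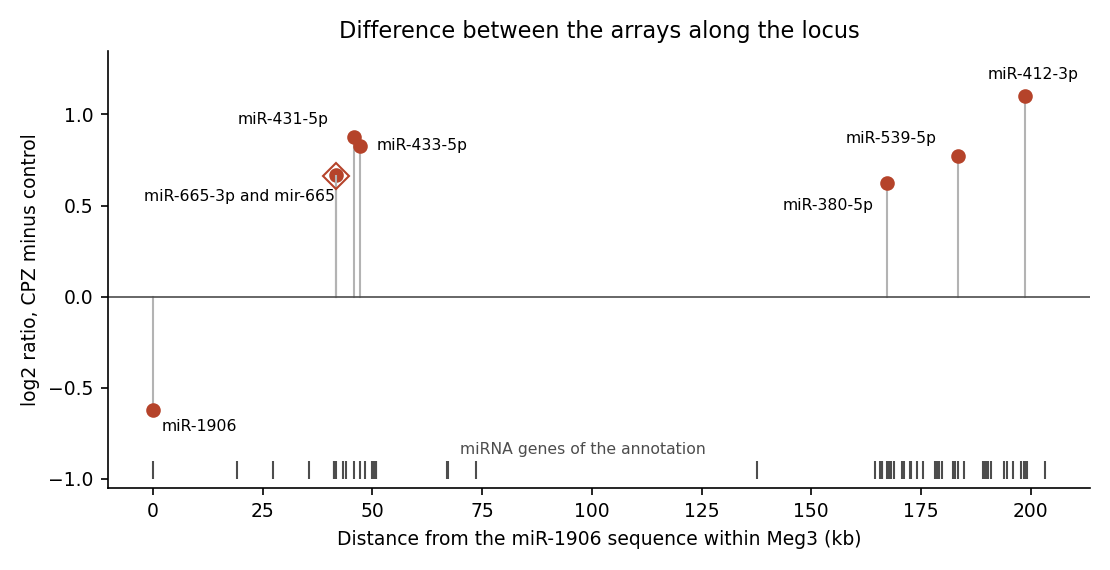
log2 ratio (CPZ minus control) of the features against the distance in kb from the miR-1906 sequence within Meg3, with circles for mature forms, an open diamond for the stem-loop mir-665, and ticks for 60 of the 61 miRNA genes (Mir1247 lies beyond the axis). The value of miR-1906 is below 0, at -0.63, and the values at the other 6 genes lie between 0.63 and 1.10.

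Some members share stretches of sequence with other miRNAs of the locus, which matters for what a probe can read. The longest was a run of 13 bases between mmu-miR-412-3p and mmu-miR-758-3p, shown in capitals.
mmu-miR-412-3p: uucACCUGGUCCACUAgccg
mmu-miR-758-3p, chr12:109712858-109712876: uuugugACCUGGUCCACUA

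A run of 10 bases that covers the whole seed of mmu-miR-380-5p also stands in mmu-miR-758-5p and in mmu-miR-134-5p, a miRNA that acts on the kinase Limk1 in rat hippocampal neurons. The run begins at base 2 of mmu-miR-380-5p, base 1 of mmu-miR-758-5p and base 7 of mmu-miR-134-5p, so the seeds of the 3 differ. mmu-miR-1197-5p of the same locus also shares a run of 10 bases with mmu-miR-380-5p.
mmu-miR-380-5p: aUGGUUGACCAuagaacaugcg
mmu-miR-758-5p, chr12:109712823-109712843: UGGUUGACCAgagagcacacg
mmu-miR-134-5p, chr12:109734145-109734166: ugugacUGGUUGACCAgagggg

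The arms of Mir431 also share 10 bases, at bases 2 to 11 of mmu-miR-431-5p and 7 to 16 of mmu-miR-431-3p.
mmu-miR-431-5p: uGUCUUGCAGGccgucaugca
mmu-miR-431-3p, chr12:109590502-109590523: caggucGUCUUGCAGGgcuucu

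mmu-miR-758-3p, mmu-miR-758-5p, mmu-miR-134-5p, mmu-miR-1197-5p and mmu-miR-431-3p have no identified value here. Whether the probes of the members also read these miRNAs was not tested. The longest run that mmu-miR-665-3p, mmu-miR-433-5p, mmu-miR-539-5p or mmu-miR-1906 shared with any other mature mouse miRNA was 8 to 10 bases.

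Marker miRNAs of cell types could be located only where the study listed them for a difference of at least 1.5-fold. Of 19 on the marker list, 9 could be located, so that these differ is fixed by the selection. The 2 of 4 found for oligodendrocytes, miR-219a-2-3p and miR-338-5p, had values of 8.16 and 7.07 in CPZ and 9.66 and 7.74 in control. The 1 of 3 found for microglia and immune cells, miR-155-5p, was at 4.94 in CPZ and 2.29 in control. All 4 of epithelium, members of the miR-200 family, ranged from 1.67 to 4.37 in CPZ and from 6.65 to 9.99 in control. The vessel wall marker miR-145a-5p, 1 of 2 listed, was at 10.5 in CPZ and 11.2 in control. Outside the marker list, miRNAs of these tissues went both ways. For epithelium, miR-203-3p was at 5.70 in CPZ and 4.77 in control, whereas the study listed miR-182-5p as lower. For the vessel wall, the study listed miR-199a-3p and miR-199b-3p as higher in CPZ. miR-206-3p, a miRNA of cerebellum and muscle, was at 4.53 in CPZ and 5.49 in control. None of the 3 markers of neurons and none of the 2 of red blood cells could be located, so the tissue was not checked against neuronal markers. These markers come from the same selected tables, and their part in the values of the Dlk1-Dio3 features was not tested.

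The fold changes were smaller when a constant was added to both signals before the ratio was taken. With 16 added to both linear signals, mmu-miR-431-5p remained 1.64-fold higher, and the other 6 higher features were 1.25-fold to 1.37-fold higher. The decrease of mmu-miR-1906 was then 1.25-fold. With 64 added, the 8 differences were 1.09-fold to 1.37-fold, among them 1.12-fold for mmu-miR-433-5p and 1.09-fold for mmu-miR-539-5p. An added constant makes every ratio smaller and cannot turn its direction.

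**Figure D5:**
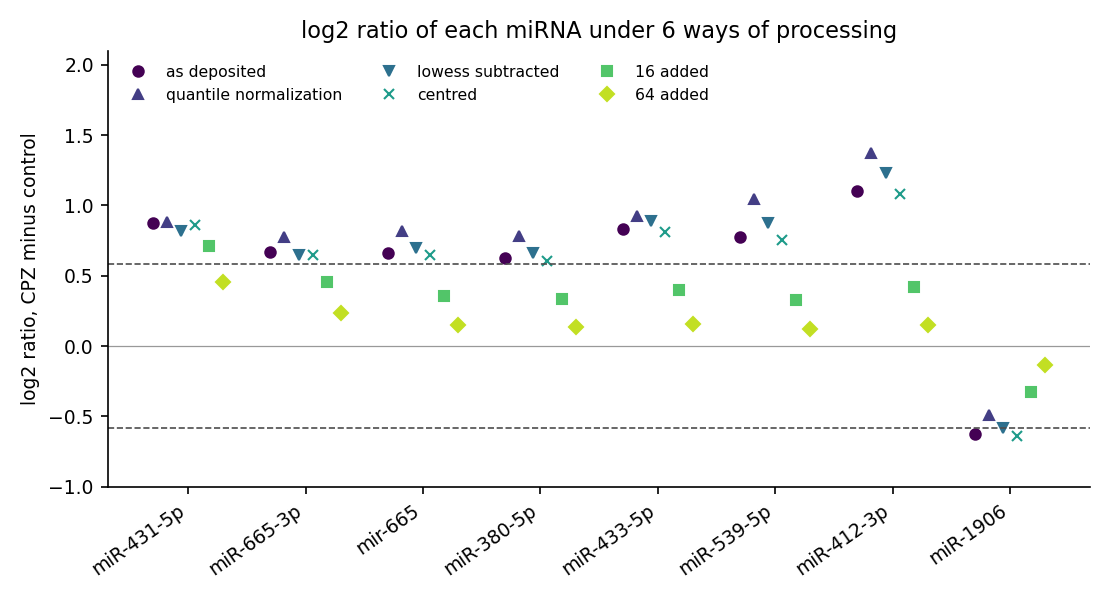
log2 ratio (CPZ minus control) of each feature as deposited and under 5 alternatives (quantile normalization, lowess subtracted, centred, 16 or 64 added to the linear signals), with dashed lines at 1.5-fold. With 16 added miR-431-5p is the only feature past the line, at 0.71, and with 64 added none is.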

How the data were processed

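The authors extracted total RNA, labelled 1 µg with biotin, hybridized 1 Affymetrix miRNA 4.0 array per condition, used Affymetrix Power Tools for RMA and for DABG detection calls, and compared the conditions by fold change at 1.5. The deposited values are log2 signals after RMA, 1 per probe set and array. Because RMA treats the 2 arrays jointly, the value of one depends on the other. The labels and the methods differ on the tissue and on the extraction reagent. Detection calls and the study's filter for mouse probes were not used here. No columns of other samples were used.

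The members, the lists and the level window were chosen with earlier results of these data known. All 8 members are named. For each, both values, the log2 ratio and the share past 1.5-fold among distinct pairs with a mean within 0.5 were computed, without a test. Listed values served only to name probe sets. Alternatives were a fold of 2, 16 or 64 added to the linear signals, centring on pairs with a mean of at least 5, lowess (span 0.3), quantile normalization, each probe set counted, other tolerances (0.001, 0.00005) and other windows (0.25, 1). Sequences come from RefSeq tables on GRCm38.p6, which matched all 8. Functions were tested on simulated data. Python 3.11.15, numpy 2.4.6, pandas 2.3.3, statsmodels 0.14.6 and matplotlib 3.10.9 were used.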

Additional observations from a re-analysis of the deposited data

How the results depend on the processing

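With 16 added to the linear signals, 1 feature was at least 1.5-fold higher and 0 were lower, with 64 added 0 and 0, and at a fold of 2, 1 and 0. No feature was at least 1.5-fold lower after lowess or quantile normalization, which left 0. The median log2 ratio was 0.38 with 16 and 0.15 with 64 added, beside 0.72 as deposited. It was 0.70 after centring, 0.76 after lowess and 0.85 after quantile normalization. Centring left all 8 past the threshold, and lowess and quantile normalization left 7 of 8, miR-1906 being the exception. Of all distinct pairs 34.2% were past 1.5-fold in either direction. This share was 18.8% over every probe set, 10.1% at a fold of 2, 1.79% with 16 added and 6.53% at a mean level of at least 5. Both other tolerances located the same number of features, 8. The shares at like level moved by less than 1.5 times with the other windows. No replicate could be left out and no paired analysis was possible because each condition has 1 array, which limits every statement to these 2 arrays.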

Other observations

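Equal log2 ratios were frequent among dim pairs of values. Of the 6653 distinct pairs, 59.7% had a log2 ratio whose size, in either sign, occurred in at least 10 pairs within 0.00002. At a mean level under 3 this held for 82.2% of 4541 pairs, at 3 to 5 for 22.9% of 902 and at 5 or more for 2.89% of 1210. Among the 8 features it held for 1, the stem-loop mmu-mir-665, with 87 other pairs. The next was mmu-miR-539-5p, with 6 other pairs, of which 4 had its sign. The values are given as found, and the source of the recurring sizes was not tested.

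By distance over the 2 arrays, the nearest of the other 61 listed miRNAs lay 0.038 from mmu-miR-1906 (miR-7224-3p, at 3.79 in CPZ and 4.46 in control). For mmu-miR-412-3p the nearest was miR-6971-5p at a distance of 0.103, with 3.77 in CPZ and 2.67 in control. These had the same log2 ratio within 0.00002, at 2.15-fold each. For mmu-miR-431-5p the nearest was miR-146b-5p, at a distance of 0.251. For the other 5 features the distance to the nearest listed miRNA was 0.128 to 0.297. With 2 arrays, such nearness describes a pair of values only.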
